A study of Mus musculus with 2 samples.

Results

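The cells described here were the dividing cells of the intestinal crypt in which no molecule of Atoh1 was captured, the transcription factor that commits crypt progenitors to the secretory fate. A cell belonged to them when at least 5 of 8 genes of mitosis (Mki67, Top2a, Birc5, Ube2c, Nusap1, Cenpf, Ccnb2 and Cdk1) were each seen with a unique molecular identifier (UMI, the tag that marks 1 captured RNA molecule), when Atoh1 had none, and when goblet, Paneth and T cell transcripts stayed under fixed limits. These limits were 0.5% of UMIs for 5 goblet genes, 5% for the defensins together with Lyz1, and 0 UMIs for 3 Cd3 genes. In all, 1200 of the 12554 kept cells met the rule, 790 in the wild type (WT) library and 410 in the MG53-TG library. The members, called dividing or cycling cells below, were chosen by their measured UMIs of these genes, so the levels of Mki67, Top2a, Ube2c and the other rule genes are a description.

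The WT mice were littermates of the MG53-TG mice, which overexpress MG53, a membrane repair protein of muscle encoded by Trim72, throughout the body. Both groups drank water with 2.5% dextran sulfate sodium (DSS), a salt toxic to the gut epithelium, and their cells were collected on day 7. Live epithelial cells, negative for the dye 7-AAD and positive for EpCAM, were sorted from dissociated crypts and captured with the 10x Genomics 3′ kit, version 3. There was 1 library per genotype, the labels do not give the number of mice behind each library (a legend of the study names several mice a group, with no word on pooling), and the promoter of the transgene is not given in the sources used here. Library, genotype and program version therefore cannot be told apart. Cells of 1 library are no replicates of a genotype, so the genotypes were compared without a test. All intervals below are 95% intervals that cover counting error only.

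Crypts renew the intestinal lining. Stem cells at the crypt base divide slowly relative to their daughters, the transit-amplifying cells, which pass through several rapid divisions while they move up the crypt and settle on an absorptive or a secretory fate. Notch signalling holds Atoh1 off in future absorptive cells and in the stem cells themselves. A dividing cell makes its DNA and the histones that package it in S phase, and then builds the spindle, condenses its chromosomes and separates them in G2 and mitosis, so that transcripts of replication and of mitosis mark different stretches of the same cycle.

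The genes of mitosis share short promoter sequences, and 4 promoters of the genes that defined these cells are shown because their transcripts chose the cells. Capitals mark CCAAT, the letters bound by the factor NF-Y, and TTTGAA, the core of the element through which mitotic genes are repressed outside G2 and mitosis, each in either orientation (ATTGG and TTCAAA on the opposite strand). Each line gives the 150 bases before the transcription start, 5′ to 3′ on the strand of the gene, from RefSeq on build GRCm38.p6. Mki67 encodes the proliferation antigen Ki-67 (chr7:135716380-135716529, minus strand), Top2a the topoisomerase that untangles chromosomes (chr11:99024190-99024339, minus strand), Ube2c the ubiquitin conjugase of the anaphase-promoting complex (chr2:164769779-164769928, plus strand) and Cdk1 the mitotic kinase (chr10:69352913-69353062, minus strand).
Mki67: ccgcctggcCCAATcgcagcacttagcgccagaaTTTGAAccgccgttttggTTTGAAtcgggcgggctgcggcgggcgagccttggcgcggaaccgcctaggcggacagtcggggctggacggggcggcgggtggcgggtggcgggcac
Top2a: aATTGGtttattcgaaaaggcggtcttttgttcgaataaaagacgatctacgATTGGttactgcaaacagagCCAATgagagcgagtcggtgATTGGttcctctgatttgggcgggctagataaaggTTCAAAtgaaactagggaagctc
Ube2c: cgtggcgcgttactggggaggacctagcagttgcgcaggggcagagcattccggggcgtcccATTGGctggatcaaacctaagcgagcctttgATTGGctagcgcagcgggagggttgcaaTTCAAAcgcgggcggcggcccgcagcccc
Cdk1: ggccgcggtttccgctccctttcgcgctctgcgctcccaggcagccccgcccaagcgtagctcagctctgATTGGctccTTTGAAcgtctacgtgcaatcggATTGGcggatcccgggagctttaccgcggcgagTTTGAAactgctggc

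Over the whole window searched, from 250 bases before to 50 after the start on both strands, 6 of the 8 defining genes held CCAAT and 6 of 8 held TTTGAA, while Birc5 and Nusap1 held none of these letters. Of 57 further mitotic genes, 46 were matched in the RefSeq table, and 76.5% of their 51 promoters held CCAAT and 68.6% held TTTGAA. The shares were 37.4% and 17.9% over all 32851 promoters, and 38.9% and 12.8% over the promoters of the genes tested in these cells. The 52 promoters of the replication list (43 of 53 genes matched) held CCAAT in 55.8% and TTTGAA in 15.4%, and held the E2F letters TTTCCCGC or TTTGGCGC in 25% against 1.56% of all promoters and 3.68% of those of the genes tested. A match here is a description of letters and not a bound site.

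Within each library the dividing cells carried most replication, histone and mitotic transcripts at higher levels than noncycling cells. The latter had none of the 8 defining genes and met the other limits (1892 WT and 1224 MG53-TG cells). As a description, since the rule used these cells' cycle genes, 304 of 5961 genes (5.10%) were at least 4-fold higher in the dividing cells of both libraries. Mitotic genes outside the rule had a median log2 ratio of 5.83 in WT and 6.21 in MG53-TG, with 50 of 53 at least 4-fold higher in both. Replication genes stood at 3.02 and 3.07, with 34 of 41 past that fold, and replication-linked histones at 4.18 and 3.69, with 14 of 16. Genes of G1 cyclins and CDK inhibitors had medians of 1.67 and 1.36, with 1 of 11 at least 4-fold higher in both libraries and 1 lower.

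Groups beyond the cell cycle differed as well. The absorptive list, genes of nutrient uptake in mature enterocytes, had median log2 ratios of -3.04 in WT and -3.07 in MG53-TG, and 21 of 25 genes were at least 4-fold lower in both libraries, as were 360 of all 5961 genes (6.04%). The crypt base stem cell list was higher, at 1.32 and 1.61, with 3 of 12 genes past 4-fold in both, and the ribosome biogenesis list stood at 1.83 and 2.18, with 6 of 21. The DNA repair and checkpoint list lay at 2.56 and 2.74, with 6 of 10 past 4-fold. At least 4-fold lower in both libraries were 7 of 13 antimicrobial and 6 of 11 interferon genes. So were 7 of 7 tuft and 8 of 8 enteroendocrine markers. The part of such cells among the noncycling cells in these ratios was not tested.

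The label of crypt epithelium was checked against marker genes, and all 7 epithelial markers were present, at a sum of 7515 CPM in WT, where CPM is UMIs per 1000000 UMIs of these cells, and of 7329 CPM in MG53-TG. The Cd3 genes were at 0 by the rule, and the T cell list of 8 genes summed to 7.95 and 3.52 CPM, with 5 of 8 genes seen in each library. The other immune list summed to 12.6 CPM in WT, with 6 of 8 genes seen, and to 5.71 CPM in MG53-TG, with 3 of 8. Stroma and endothelium summed to 7.09 CPM in WT, with 6 of 8 markers at 0, Col1a1 and Pdgfra among them, and to 0.469 CPM in MG53-TG. Paneth markers summed to 897 and 416 CPM, enteroendocrine markers to 206 and 17.9 CPM, goblet markers to 642 and 594 CPM and tuft markers to 74.98 and 81.98 CPM. The rule capped the 5 goblet genes, the defensins and Lyz1 among these markers, so the goblet and Paneth sums are a description and no check. The Paneth, enteroendocrine, T cell, other immune and stroma sums were thus lower in MG53-TG, and the enteroendocrine sum in WT rested on few cells, with 93.4% of Chgb UMIs in 8 cells. The part of such cells in the results was not tested beyond leaving out the cells rich in antibody or hormone RNA, given with the genes they carried.

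The cells were sampled with 20886203 UMIs in WT and 12795508 in MG53-TG. The median cell held 24629 UMIs and 4542 genes in WT and 29322 UMIs and 5069.5 genes in MG53-TG, and the median mitochondrial share was 4.79% and 4.81%. Cells just inside the rule were fewer than those with every defining gene. In WT, 142 cells had 5 of the 8 genes, 108 had 6, 118 had 7 and 422 had all 8, and the corresponding MG53-TG numbers were 58, 68, 65 and 219. Just outside, 125 WT and 63 MG53-TG cells that met every other term had 4 of the 8, with a median of 10.9 and 9.27 UMIs of the mitotic list per 10000 UMIs of the cell. Those with 5 had 13.5 and 17.9, and those with all 8 had 65.6 and 67.0. No barcode was shared between members of the 2 libraries.

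Dividing cells made up a smaller share of the MG53-TG library than of the WT library. They were 10.7% of kept WT cells (790 of 7401, exact interval 9.98 to 11.4) and 7.96% of kept MG53-TG cells (410 of 5153, 7.23 to 8.73), a difference of -2.72 percentage points (Newcombe interval -3.73 to -1.69). Among kept cells that met every other term of the rule, the WT share was 20.9% and the MG53-TG share 18.2%, which differed by -2.72 points (-4.75 to -0.64).

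The share differed with depth. From 10000 to under 20000 UMIs it was 7.88% for WT and 3.40% for MG53-TG, and from 20000 to under 40000 UMIs it was 26.3% and 14.6%, a difference of -11.8 points (-14.4 to -9.17). At 40000 UMIs or more the order was the other way, with 22.6% of the WT band (394 cells) and 24.7% of the MG53-TG band (271 cells), a difference of 2.13 points whose interval spanned 0 (-4.34 to 8.82). The 8 defining genes were also thinned as if every cell held 5000 UMIs, with the other terms of the rule read at full depth. Left out as shallower were 1651 WT and 718 MG53-TG cells. The expected shares were 8.26% and 5.34%, against 13.7% and 9.20% in the same cells unthinned. The direction was the same after thinning and in each band below 40000 UMIs, with intervals that spanned 0 in the bands below 10000 UMIs.

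**Figure D1:**
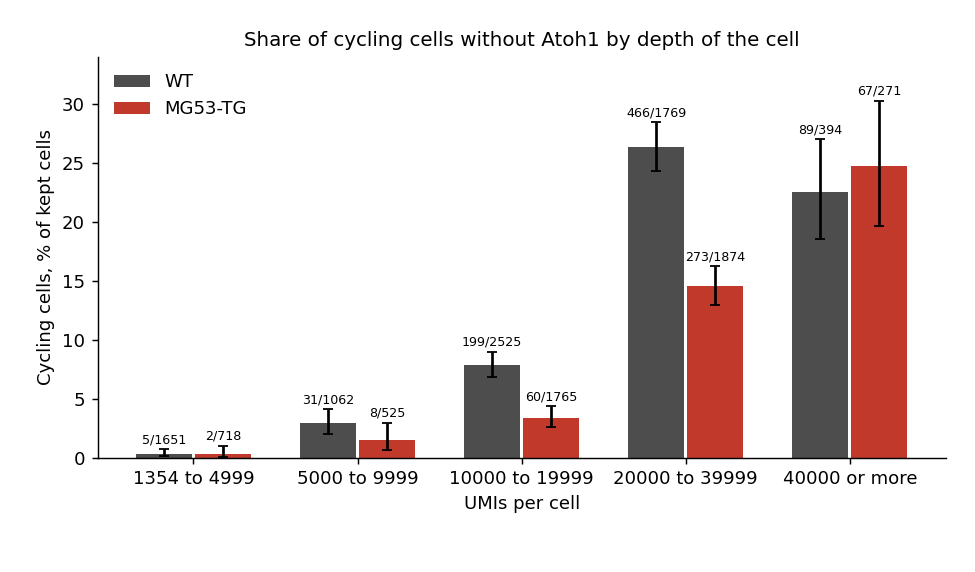
Dividing cells without Atoh1 as a percentage of kept cells in each band of UMIs per cell, for WT and MG53-TG, with exact 95% intervals as error bars and the number of dividing cells above each bar. The MG53-TG bar is lower from 10000 to under 40000 UMIs (26.3% against 14.6% in the upper of these bands) and the intervals overlap at 40000 UMIs or more.

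Among cells with 5 or more of the defining genes and no other limit applied, an Atoh1 UMI was found in 18.6% in WT (197 of 1060, 16.3 to 21.1) and in 30.6% in MG53-TG (188 of 615, 26.9 to 34.4), 11.98 points more (7.70 to 16.3). No thinned share was made for this comparison, and the median depth of the dividing cells without Atoh1 was 24629 UMIs in WT and 29322 in MG53-TG. Few of the cells with an Atoh1 UMI stayed within the goblet, Paneth and Cd3 limits. Cells that met the rest of the rule but had an Atoh1 UMI numbered 24 of 814 in WT (2.95%, 1.90 to 4.36) and 13 of 423 in MG53-TG (3.07%, 1.65 to 5.20), a difference of 0.125 points (-1.77 to 2.45). With Atoh1 alone thinned to 5000 UMIs, in those of these cells with at least that depth, the shares were 0.752% and 0.699%. A zero for Atoh1 in 1 cell therefore does not show that the gene was off there.

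Trim72, the gene that encodes MG53 (chr7:128003949-128011033, plus strand, GRCm38), separated the libraries. In WT, 11 UMIs were found in 10 of 790 dividing cells, 0.527 CPM (exact Poisson interval 0.263 to 0.942). In MG53-TG, 219 UMIs were found in 121 of 410 cells, 17.1 CPM (14.9 to 19.5), a log2 ratio of 5.02 (4.15 to 6.05). The share of cells with a Trim72 UMI was 1.27% in WT and 29.5% in MG53-TG. Trim72 was higher still in MG53-TG noncycling cells, at 90.3 CPM against 0.524 CPM in WT, and stood at 50.6 CPM in MG53-TG crypt base cells outside mitosis, which had at most 1 of the 8 defining genes and at least 2 of 5 stem cell genes. The dividing cells therefore carried less Trim72 RNA relative to all RNA captured than either population in the same library. The counted reads do not separate the transgene from the mouse gene. WT barcodes of at most 100 UMIs held 54 Trim72 UMIs among 6059698. The MG53-TG table began at 500 UMIs and has no such barcodes, so the part of RNA free in the droplets was not tested.

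Few genes of any kind differed by 1.5-fold between the dividing cells of the libraries. None of the 41 replication genes, 55 mitotic genes or 17 replication-linked histones tested was 1.5-fold different, and their median log2 ratios of MG53-TG over WT were 0.08, 0.02 and -0.03. A gene was tested when it had at least 100 UMIs in both libraries together and 20 CPM in at least 1, and called when the ratio was 1.5-fold or more. Of 5373 genes tested, 34 (0.633%) were called higher and 30 (0.558%) lower in MG53-TG, so that lists of this size would hold few or no called genes at the background share. The median of all was 0.03, and 3244 of the 5373 had a log2 ratio above 0. The 8 defining genes lay between -0.12 for Birc5, the survivin of the chromosome passenger complex, and 0.07 for Ube2c.

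Levels of single genes outside the rule ran as follows. Pcna, the sliding clamp of DNA polymerase, was at 127 CPM (123 to 132) and 152 CPM (145 to 159), a log2 ratio of 0.26, and Hells, a remodeller of chromatin and the highest of the replication list, was at 63.4 and 87.5 CPM, a log2 ratio of 0.46. Tk1, thymidine kinase, was the lowest of that list, at 123 and 109 CPM. Cdc20, which activates the anaphase-promoting complex, was at 142 CPM in each library, and the mitotic list ran from -0.22 for Ndc80 to 0.28 for Hjurp.

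Per cell, transcripts of the phases had like medians. Summed over each list, the median cell had 19.9 replication UMIs per 10000 in WT and 19.6 in MG53-TG, 48.4 and 48.2 mitotic UMIs, and 17.1 and 16.8 histone UMIs. Cells at 25 or more for replication and under 40 for mitosis were 17.8% of WT and 18.5% of MG53-TG members, and cells high in both were 22.8% and 20.7%. Cells high in mitosis alone were 37.8% and 37.1%, and cells low in both were 21.5% and 23.7%. The interval of each of these 4 differences spanned 0, the widest running from -6.46 to 5.04 points. These cuts were set after the values were seen. At higher cuts, cells at 40 or more for replication were 22.8% and 27.8%, a difference of 5.02 points (-0.10 to 10.34), and cells at 60 or more for mitosis were 35.1% and 40.0%, a difference of 4.94 points (-0.80 to 10.7).

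The 4 groups of cells carried different transcripts. As a description, since these genes enter the cuts, Pcna was at 302 CPM (WT) and 367 CPM (MG53-TG) where replication alone was high, and at 33.7 and 43.9 CPM where mitosis alone was high. Cdc20 went the other way, at 30.0 and 26.4 CPM against 255 and 247 CPM. Hist1h1b, the linker histone H1.5, peaked in cells high in both lists, at 1344 and 1375 CPM, and was lowest in cells low in both, at 67.1 and 10.6 CPM. Across cells, Spearman's rho between histone and mitotic UMIs was 0.57 in 790 WT cells and 0.53 in 410 MG53-TG cells, and between replication and mitotic UMIs 0.08 and 0.03, as a description over cells that share a library and a total.

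**Figure D2:**
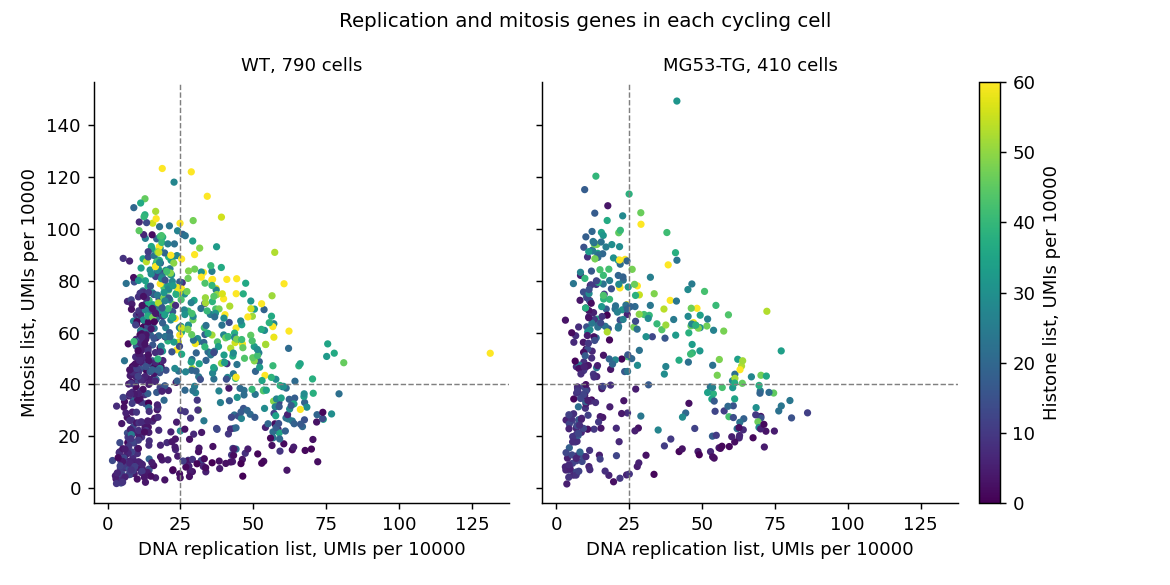
Each point is 1 dividing cell, with its replication-list UMIs per 10000 on the x axis, its mitotic-list UMIs per 10000 on the y axis and its histone UMIs per 10000 as colour, in WT and MG53-TG panels, with dashed lines at 25 and 40. Cells high in mitosis alone are 37.8% in WT and 37.1% in MG53-TG, and the upper quartile on the x axis is 37.6 and 45.0.

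Genes that gate entry into the cycle had a median of 0.13 over 11 tested, and none was called, which at the background shares says little of so short a list. Ccnd1, cyclin D1 (chr7:144929931-144939925, minus strand), was at 199 CPM in WT (193 to 205) and 168 CPM in MG53-TG (161 to 175), a log2 ratio of -0.25 (-0.32 to -0.17). In noncycling cells it was at 51.9 and 24.4 CPM, a log2 ratio of -1.09, and the 2 ratios differed by 0.84 (0.67 to 1.01 by counting error). Ccnd2, cyclin D2, was at 393 and 466 CPM in dividing cells, a log2 ratio of 0.24, and at 121 and 88.0 CPM in noncycling cells, a log2 ratio of -0.46. Myc, the growth regulator downstream of Wnt, was at 39.7 and 43.5 CPM, and Cdkn1a, the CDK inhibitor p21, at 42.6 and 57.6 CPM, a log2 ratio of 0.44.

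Most stem cell genes that could be tested lay above the WT level without reaching 1.5-fold. Of the 14 tested in a list of 21, 13 had a log2 ratio above 0, beside 3244 of 5373 over all genes, none was called, and the median was 0.15. Olfm4, a secreted marker of crypt base cells (chr14:79984081-80023139, plus strand), was at 816 CPM in WT (804 to 828) and 1154 CPM in MG53-TG (1136 to 1173), a log2 ratio of 0.50 (0.47 to 0.53). In noncycling cells it was at 159 and 139 CPM, and in crypt base cells outside mitosis at 1691 and 1582 CPM, so the log2 ratio was above 0 in the dividing cells and below 0 in these other populations.

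Rarer stem cell transcripts gave wider intervals. Ascl2, the transcription factor of the stem cell state, was at 18.4 CPM (16.6 to 20.4) and 23.9 CPM (21.3 to 26.7). Lgr5, a marker of intestinal stem cells, had 98 UMIs in WT, 4.69 CPM (3.81 to 5.72), and 146 UMIs in MG53-TG, 11.4 CPM (9.63 to 13.4). Its log2 ratio was 1.28 (0.90 to 1.67), for a gene under the level needed for testing. An Olfm4 UMI was found in 65.6% of WT and 67.3% of MG53-TG dividing cells, whereas noncycling WT cells, with a median of 10413 UMIs, showed it in 9.57%. Notch1 was at 18.2 and 23.1 CPM and its target Hes1 at 56.7 and 61.3 CPM, neither called. Sox4, a transcription factor of immature and secretory progenitors, was at 40.7 and 62.1 CPM, a log2 ratio of 0.61, and was the gene called higher among 4 tested in the Notch and secretory fate list. Its call was lost under median of ratios scaling (0.58), among cells of 10000 to 40000 UMIs (0.49) and with 4 of the 8 defining genes required (0.56).

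The dividing cells ranged widely in Olfm4 and in Fabp1, the fatty acid binding protein of enterocytes, and the shares over that range differed between libraries. Cells with 10 or more Olfm4 UMIs per 10000 were 25.4% of WT (201 of 790) and 32.2% of MG53-TG members (132 of 410), a difference of 6.75 points (1.39 to 12.3). Cells below that but with 10 or more of Fabp1 were 34.9% and 50.2%, a difference of 15.3 points (9.41 to 21.1). Cells low in both were 39.6% and 17.6%, a difference of -22.1 points (-26.9 to -16.9). These cuts make ranges and not types. They use Fabp1 and Olfm4, whose own log2 ratios in dividing cells were 0.81 and 0.50, so the shares are no separate result. Cells near the Olfm4 cut, at 5 to under 20, were 20.6% and 16.3% of members, and cells near the Fabp1 cut were 29.5% and 28.5%.

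High levels of Olfm4 and of Fabp1 were largely found in different cells. Few cells had 10 or more of each, 2.15% of WT and 6.59% of MG53-TG members, and Spearman's rho between them was -0.42 over 790 WT cells and -0.65 over 410 MG53-TG cells. The median cell had 5.79 Fabp1 UMIs per 10000 in WT and 13.7 in MG53-TG, while the median for Olfm4 was 1.03 and 1.16. Cells high in Olfm4 had the most replication transcripts, a median of 26.7 (WT) and 27.8 (MG53-TG) per 10000, against 19.5 and 14.2 in Fabp1-high cells. Ccnd1 had a log2 ratio of 0.19 (0.06 to 0.31) in Olfm4-high cells and of -0.45 (-0.58 to -0.32) in Fabp1-high cells. In cells low in both it was -0.21 (-0.36 to -0.05).

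**Figure D3:**
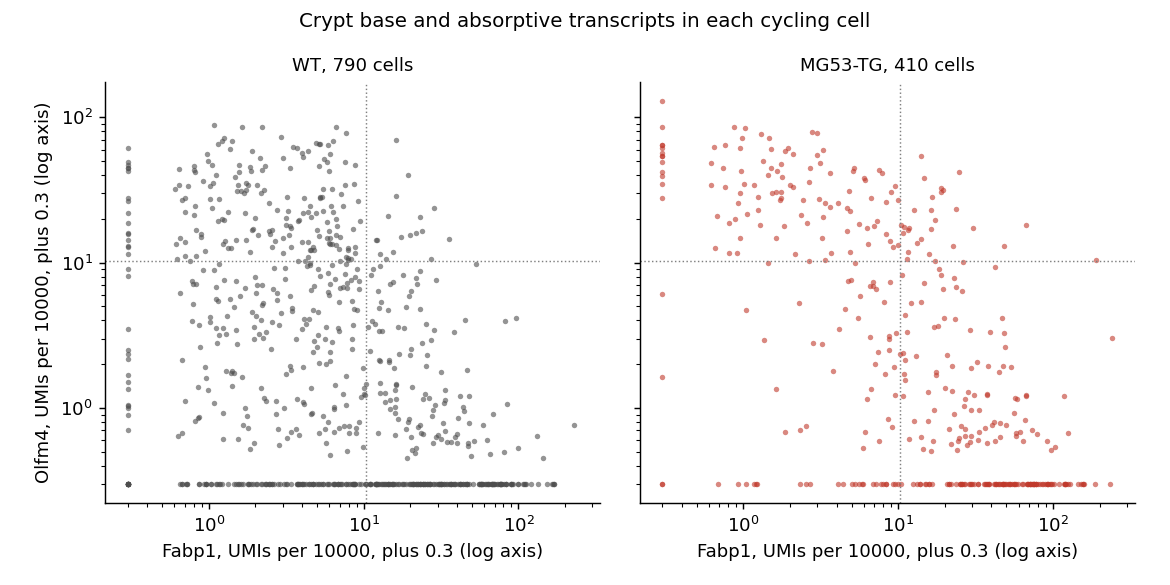
Fabp1 (x axis) and Olfm4 (y axis) UMIs per 10000 in each dividing cell, on log axes after an offset of 0.3, for WT and MG53-TG, with dotted lines at 10. The lower left field, low in both genes, holds 39.6% of WT and 17.6% of MG53-TG cells.

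The list with the most genes called higher in MG53-TG dividing cells was that of amino acid synthesis under Atf4, the transcription factor that cells use to answer amino acid shortage and other stress. Of 13 list genes tested, 12 had a log2 ratio above 0 and 8 were called higher, none lower, with a median of 0.75 beside 0.03 for all genes. Among all 5373 genes tested, 3244 lay above 0 and 34 (0.633%) were called higher. Asns, asparagine synthetase (chr6:7675169-7693254, minus strand), was at 121 CPM in WT (116 to 126) and 214 CPM in MG53-TG (206 to 223), a log2 ratio of 0.83 (0.75 to 0.91). Atf5, a transcription factor of the same response (chr7:44812256-44816658, minus strand), was at 34.2 CPM (31.8 to 36.8) and 84.8 CPM (79.8 to 90.0), a log2 ratio of 1.31 and the highest among the genes named by size.

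The 3 enzymes that make serine from a glycolytic intermediate were all called. Phgdh, the first step (chr3:98313170-98339990, minus strand), was at 68.1 CPM in WT (64.6 to 71.7) and 138 CPM in MG53-TG (132 to 145), a log2 ratio of 1.02. Psat1, the middle step (chr19:15904678-15947337, minus strand), was at 37.1 and 76.9 CPM, a log2 ratio of 1.05, and Psph, the last step, at 35.6 and 68.7 CPM, a log2 ratio of 0.95. Cth, which makes cysteine, was at 104 and 195 CPM (0.91), and the mitochondrial one-carbon enzymes Mthfd2 and Shmt2 had log2 ratios of 0.75 and 0.70. Atf4 itself was at 111 CPM (107 to 116) and 151 CPM (145 to 158), a log2 ratio of 0.44 that was not called, and Ddit4, a stress-induced inhibitor of mTORC1, was the list's lowest at -0.18.

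The promoter of Asns (chr6:7693210-7693359, minus strand, GRCm38.p6, from RefSeq) is shown because it held the letters TGATGNAA, a core of the element that Atf4 binds with its partners. The capitals mark these letters, which start 23 bases before the transcription start.
Asns: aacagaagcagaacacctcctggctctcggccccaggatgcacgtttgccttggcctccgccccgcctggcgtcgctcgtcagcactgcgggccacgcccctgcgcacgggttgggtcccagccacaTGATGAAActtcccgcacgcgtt
Searched on both strands, and added after values were seen, TGATGNAA was found in 8 of 28 promoters of the Atf4 list (28.6%), against 3.97% of all promoters and 2.08% of the promoters of genes tested. Of the 9 promoters that belonged to the called genes, 1 held it, that of Asns.

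Per cell, the higher level was shared across the population. The summed Atf4 list had a median of 8.48 UMIs per 10000 in WT, with quartiles of 6.30 and 11.4, and of 14.6 in MG53-TG, with quartiles of 10.9 and 18.5. The median list log2 ratio was 0.67 in Olfm4-high cells, 0.87 in Fabp1-high cells and 0.56 in cells low in both, so each range of the population showed it. By cycle phase, Asns stood at 90.1 and 164 CPM where replication alone was high and at 146 and 243 CPM where mitosis alone was high. Noncycling cells of the same libraries had a list median of 0.74, with 6 of 9 genes called higher where 173 of 5434 genes (3.18%) were, and crypt base cells outside mitosis had 0.38, beside a median of 0.10 over all genes there.

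Cytosolic tRNA ligases, which charge tRNAs with amino acids and are partly under Atf4, stood above the median of all genes. Of 19 tested, 15 had a log2 ratio above 0 and 1 was called, with a median of 0.32. Among all 5373 genes, 3244 lay above 0 and 34 were called higher. The called gene was Nars, the asparagine ligase, at 360 CPM in WT (352 to 368) and 561 CPM in MG53-TG (548 to 574), a log2 ratio of 0.64, and the lowest of the list was Farsa, part of the phenylalanine ligase, at -0.17. The median cell had 17.9 ligase UMIs per 10000 in WT and 23.3 in MG53-TG. The ribosome biogenesis list had none of 21 genes called and a median of 0.13.

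Fabp1, Fabp2 and Rbp2, 3 small carrier proteins of enterocytes, were called higher, while the carrier Fabp6 was called lower, at a log2 ratio of -1.47. Fabp1 (chr6:71199827-71205023, plus strand) was at 1750 CPM in WT (1732 to 1768) and 3072 CPM in MG53-TG (3042 to 3103), a log2 ratio of 0.81. Fabp2, the intestinal fatty acid binding protein, was at 811 and 1399 CPM (0.79), and Rbp2, the retinol carrier of enterocytes, at 553 and 947 CPM (0.78). In noncycling cells these 3 genes were several times higher in both libraries, and their log2 ratios there were 0.45, 0.39 and 0.34. Within the ranges of the dividing cells, Fabp2 stood at 0.56 in Olfm4-high cells, 0.62 in Fabp1-high cells and 0.39 in cells low in both, and Rbp2 at 0.79, 0.46 and 0.41, so that each was under 1.5-fold in 2 of the 3 ranges.

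The absorptive list as a whole was mixed, with 4 of 22 genes called higher, 1 called lower and a median of 0.09. Among all 5373 genes, 34 were called higher and 30 lower, with a median of 0.03. Besides Fabp1, Fabp2 and Rbp2, Alpi, the intestinal alkaline phosphatase of the brush border, was called at 17.1 and 26.6 CPM, a log2 ratio of 0.64. Guca2a, which encodes the hormone guanylin, was called lower at 31.6 and 17.4 CPM, a log2 ratio of -0.86 that was -0.47 from the mean of single-cell CPM and -0.41 among cells of 10000 to 40000 UMIs, where the call was lost. Among those cells Alpi, at 0.45, lost its call as well. Apoa1, the apolipoprotein of HDL, was at 409 and 301 CPM, a log2 ratio of -0.44 that was not called. Hsd17b13, a lipid droplet protein outside the lists, was at 50.6 and 101 CPM, a log2 ratio of 0.99.

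Targets of PPAR, the nuclear receptors that sense fatty acids, and enzymes of fatty acid oxidation were called higher in 6 of 34 cases and lower in none. Among all genes 34 of 5373 (0.633%) were called higher. In the list 30 of 34 had a log2 ratio above 0, beside 3244 of 5373 over all genes. The median over all genes was 0.03 and that of the list 0.23. Within the ranges of the population the median was 0.08 in Olfm4-high cells, 0.20 in Fabp1-high cells and 0.20 in cells low in both. Fabp1 and Fabp2 stand in this list too. Me1, the malic enzyme that makes NADPH, was at 18.6 CPM in WT (16.8 to 20.6) and 31.7 CPM in MG53-TG (28.7 to 35.0), a log2 ratio of 0.77 that was just short of a call among cells of 10000 to 40000 UMIs, and Acot2, a mitochondrial thioesterase, was at 24.3 and 38.2 CPM (0.65). Cpt1a, which admits fatty acids to the mitochondrion, was at 120 and 119 CPM, a log2 ratio of -0.01. The receptors were not called. Ppara was at 19.5 CPM (17.6 to 21.5) and 20.4 CPM (18.0 to 23.0), a log2 ratio of 0.07 (-0.16 to 0.29), and Ppard at 27.1 and 25.1 CPM. In noncycling cells 2 of 36 list genes were called higher, where 173 of 5434 genes (3.18%) were. The list median there was 0.05, below the median of 0.10 over all genes.

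**Figure D4:**
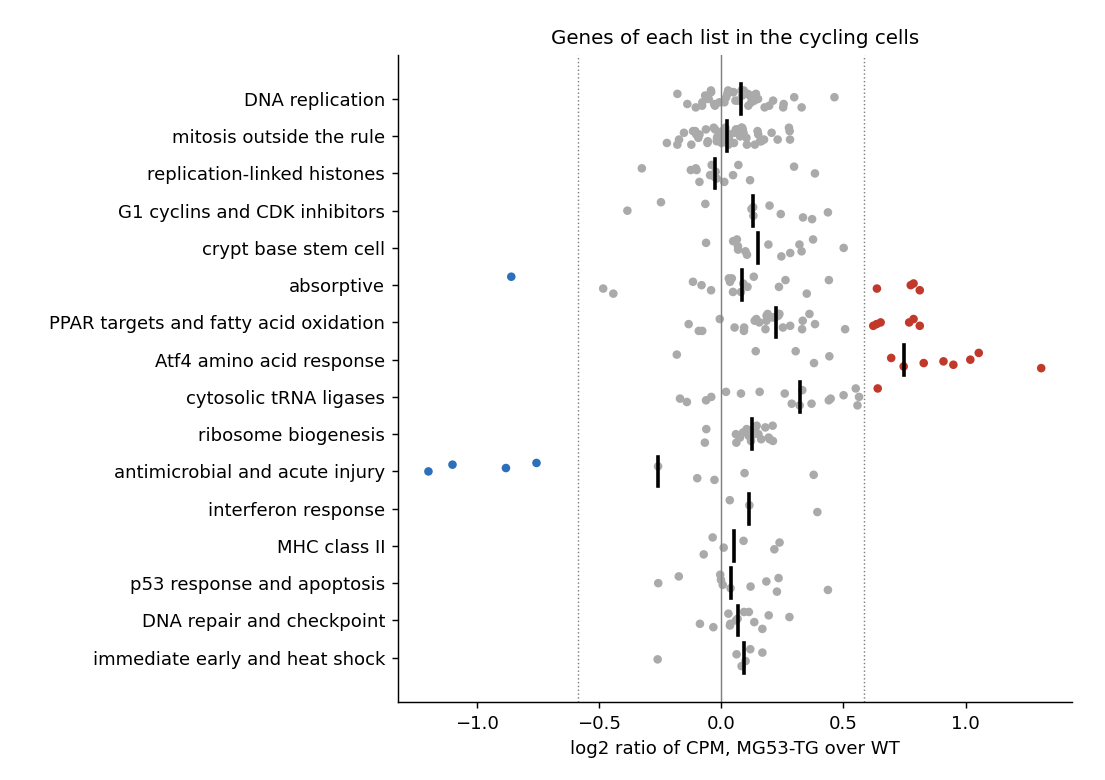
Log2 ratios of MG53-TG over WT in dividing cells, 1 dot per tested gene, in rows by gene list with a black bar at each list's median, red and blue dots for genes called higher and lower, and dotted lines at 1.5-fold. The Atf4 list has its median at 0.75 and 8 of 13 genes called higher, while the replication, mitosis and histone rows have none called.

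Part of the antimicrobial list was lower in MG53-TG dividing cells. Of 9 tested, 4 were called lower and none higher, with a median of -0.26 that ran from -0.55 to -0.15 over the alternatives. Among all 5373 genes, 30 (0.558%) were called lower. Reg3b, a secreted lectin that kills Gram-negative bacteria (chr6:78370657-78373466, plus strand), was at 8694 CPM in WT (8654 to 8734) and 3792 CPM in MG53-TG (3758 to 3825), a log2 ratio of -1.20. Reg3g, its partner against Gram-positive bacteria, was at 3186 and 1487 CPM, a log2 ratio of -1.10. Reg3b was lower in each range of the population, with log2 ratios of -1.01 in Olfm4-high, -1.09 in Fabp1-high and -1.36 in cells low in both.

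Lcn2, which withholds iron from bacteria, was at 60.0 CPM in WT (56.7 to 63.4) and 32.6 CPM in MG53-TG (29.5 to 35.9), a log2 ratio of -0.88, and at 23.3 and 4.17 CPM in noncycling cells, a log2 ratio of -2.48. Duox2, an oxidase that makes hydrogen peroxide at the surface, was at 24.3 and 14.4 CPM (-0.76) in dividing cells but at 67.2 and 84.7 CPM (0.33) in noncycling cells. Within the list, Il18, an epithelial cytokine, was at 24.9 and 32.4 CPM, a log2 ratio of 0.38 that was not called.

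Free RNA in the droplets held some of these transcripts. In the WT table, barcodes of at most 100 UMIs held Reg3b at 11782 CPM and Reg3g at 4135 CPM, above their levels in WT dividing cells, and the same held for Fabp1 at 2509 CPM. Olfm4 at 193 CPM and Asns at 60.4 CPM were below theirs. The MG53-TG table began at 500 UMIs, so the same level could not be read there, and the part of free RNA in the differences was not tested. All 7 Paneth markers tested were called lower, with a median of -1.07, and the granule genes Itln1 (58.6 and 28.0 CPM) and AY761184 (85.7 and 33.1 CPM) stood in WT dividing cells at 1.97% and 1.94% of their level in those barcodes.

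Some of the lowest ratios came from a few WT cells. Igkc, an antibody light chain, was at 1147 CPM in the WT cells and 1.48 CPM in the MG53-TG cells, and 98.8% of its WT UMIs lay in 3 cells. Sst, the hormone somatostatin, had 1807 of 1928 WT UMIs in 1 cell, and 93.4% of those of Chgb, a granule protein of enteroendocrine cells, lay in 8. Ighg2b had no UMI in MG53-TG, which at a floor of 3 counts over the library put it at least 922-fold lower, but 99.7% of its WT UMIs lay in 3 cells. In all, 13 WT and 0 MG53-TG members had over 0.5% of their UMIs in antibody or hormone genes. Without them, a comparison added after the data were seen, 36 genes were called higher and 21 lower, and the log2 ratios of Asns, Fabp1 and Reg3b were 0.83, 0.80 and -1.20.

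Further genes were called lower. Spink1, a trypsin inhibitor, was at 116 CPM in WT (112 to 121) and 74.0 CPM in MG53-TG (69.4 to 78.9), a log2 ratio of -0.65, with 0.06 in noncycling cells. It lost its call among cells of 10000 to 40000 UMIs (-0.48) and narrowly under 3 other alternatives. Ly6e, a surface protein of the interferon response, was at 143 and 87.0 CPM (-0.72), and Eif4ebp3, a repressor of cap-dependent translation, at 56.1 and 32.1 CPM (-0.80), with like ratios of -0.66 and -0.85 in noncycling cells. Fabp6, the bile acid carrier of the ileum, was at 44.9 and 16.3 CPM (-1.47), and 63.9% of its WT and 70.7% of its MG53-TG UMIs lay in 3 cells. Its log2 ratio ran from -3.62 in Fabp1-high cells to 0.54 in cells low in both.

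The remaining lists held no called genes in these cells apart from Fabp6. DNA repair and checkpoint genes had 13 tested and a median of 0.07, p53 response and apoptosis 11 and 0.04, and MHC class II, which injured epithelium can present, 6 and 0.05. The interferon list had 3 tested genes with a median of 0.12. In noncycling cells 13 were tested, with a median of 0.58, and 6 were called higher, where 173 of 5434 genes (3.18%) were. The regenerative epithelium list had 3 tested genes with a median of -0.13, which was 0.14 without a filter on low counts. Immediate early and heat shock genes, which respond to dissociation, had 6 tested and a median of 0.09. Of 9 regional genes tested, Fabp6 was the 1 called, and Gata4, a factor of the proximal small intestine, was at 44.0 and 47.4 CPM.

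Set beside noncycling cells, the dividing cells showed fewer called genes. In noncycling cells 173 of 5434 tested genes (3.18%) were called higher and 61 (1.12%) lower, against 34 and 30 of 5373 in dividing cells. Markers of other cell types also moved between the noncycling cells of the libraries, tuft markers from 971 to 1917 CPM, T cell markers from 72.8 to 6.87 CPM and enteroendocrine markers from 4107 to 3146 CPM, and their part in the noncycling ratios was not tested. Of the Atf4 list, 12 of 13 genes tested in dividing and 8 of 9 in noncycling cells had a log2 ratio above 0, with Asns at 0.83 and 1.06, Psat1 at 1.05 and 1.25 and Phgdh at 1.02 and 1.24. Fabp1, Fabp2 and Rbp2 were the more shifted in dividing cells, by 0.36, 0.39 and 0.43 on the log2 scale beyond the noncycling ratio, and Reg3b by -0.69. These last 4 differences of ratios exceed their counting intervals, and with 1 library per genotype they have no replicate check.

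**Figure D5:**
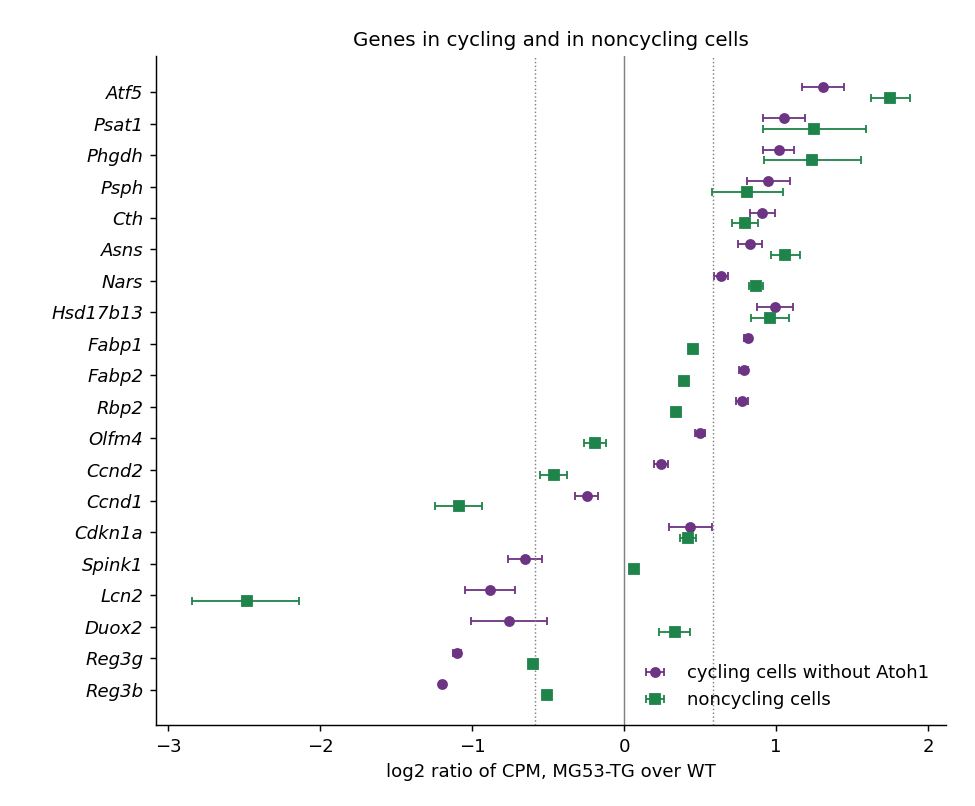
Log2 ratios of MG53-TG over WT for 20 genes in dividing cells (circles) and in noncycling cells (squares), with 95% counting intervals and dotted lines at 1.5-fold. Ratios for Asns (0.83 and 1.06) lie close together, while Olfm4 (0.50 and -0.19) and Duox2 (-0.76 and 0.33) lie on opposite sides of 0.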

How the data were processed

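Single-cell RNA-seq of sorted crypt epithelium was analysed in 2 samples, 1 WT and 1 MG53-TG. The values deposited by the authors were raw UMI counts per gene (32285 genes) and barcode, not scaled. Per the file headers, Cell Ranger 4 (WT) and 6.0.1 (MG53-TG) made them. The submitters' processing notes name mm10 and Seurat. The WT table listed all barcodes, the MG53-TG table those from 500 UMIs up. Strand use and the handling of reads that match several genes are not given in the sources used here, so genes with close copies, the defensins among them, have uncertain values.

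Kept barcodes had 1354 or more UMIs, 200 or more genes and a mitochondrial share of 25% or less. Counts were summed over the cells of a population within a library and expressed as CPM. Intervals were exact Poisson (sums), Clopper-Pearson (shares), conditional binomial (ratios) and Newcombe (differences of shares), at 95%. A gene was tested with at least 100 UMIs in both libraries together and 20 CPM in 1, and called at 1.5-fold. Python 3.11.15, numpy 2.4.6, scipy 1.17.1, pandas 2.3.3 and scanpy 1.11.5 were used, and the ratio and interval code was tested on simulated data. Doublets were scored with Scrublet in scanpy, whose automatic threshold marked 2 WT and 167 MG53-TG cells. They were left in, and removing the highest-scoring cells (0.8% per 1000 cells, 438 WT and 212 MG53-TG) was an alternative. Among members, 33 and 13 were in that class.

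Named genes were the 8 defining genes, 12 genes of the study's question, the 10 highest and 10 lowest ratios at 50 CPM or more in 1 library, and in each list up to 4 called genes per direction. Genes at the ends of list ranges, Mthfd2, Shmt2, Atf4, Apoa1, Cpt1a, Il18, Gata4, Hist1h1b, Pcna and Cdc20 were named after their values were seen. The members, the lists and the tests were chosen with earlier results of these data known. Gene coordinates were taken from GENCODE vM21 and promoters from RefSeq, both on GRCm38. In all, 12 alternatives were planned and 1 was added.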

Additional observations from a re-analysis of the deposited data

Results flagged for a closer look

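Among the named genes, 4 had log2 ratios of MG53-TG over WT on opposite sides of 0 in dividing and in noncycling cells, a difference that was not tested because each genotype has 1 library. Olfm4 was at 0.50 in dividing cells and -0.19 in noncycling cells, and Ccnd2 at 0.24 and -0.46. Duox2 was at -0.76 and 0.33, and Spink1 at -0.65 and 0.06.

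Some cells outside the comparisons met every term of the rule except the mitochondrial limit of 25%. They numbered 12 in WT and 18 in MG53-TG.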

How the results depend on the processing

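No paired analysis was possible because each group has 1 library, and for the same reason leaving out a replicate was not possible. The difference in the share of dividing cells, -2.72 points, was -4.45 with a minimum of 5000 UMIs and -6.34 among cells of 10000 to 40000 UMIs. The median log2 ratio of the antimicrobial list, -0.26, was -0.15 from the mean of single-cell CPM, -0.54 among cells of 10000 to 40000 UMIs, -0.55 with at least 6 of the 8 defining genes, -0.51 without the highest-scoring doublets and -0.44 without a filter on low counts. That of the absorptive list, 0.09, was 0.20 among cells of 10000 to 40000 UMIs. Without a filter on low counts 1689 genes were 1.5-fold higher and 1125 lower of 14888, and the median of the regenerative epithelium list, -0.13 over 3 tested genes, turned to 0.14. The cause of these shifts was not tested. Of the other values of single genes, 532 moved by less than their interval and 51 moved by more, none reversing, and of the other values of shares, counts and lists, 238 moved by less. Depth limited the rule most in shallow cells, with 1651 kept WT and 718 kept MG53-TG cells under 5000 UMIs, and depth does not stand in for replicates.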

Other observations

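Trim72 had 54 UMIs in the WT barcodes of at most 100 UMIs, 8.91 CPM, above the 0.527 CPM of WT dividing cells and the 0.581 CPM of all kept WT cells. Kept MG53-TG cells had 50.4 CPM.

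Crypt base cells outside mitosis, defined by at most 1 of the 8 defining genes, a gate that leaves S phase in, were 2.63% of kept WT cells (195) and 3.24% of kept MG53-TG cells (167). In them Cdkn1a was at 160 and 319 CPM and Sox4 at 87.2 and 182 CPM, whereas dividing cells had 42.6 and 57.6 CPM of Cdkn1a and 40.7 and 62.1 CPM of Sox4. Tuft cell markers in these crypt base cells summed to 1549 and 3276 CPM and enteroendocrine markers to 3004 and 2230 CPM. The part of such cells in these values was not tested. The 24 WT and 13 MG53-TG dividing cells with an Atoh1 UMI had Asns at 123 and 133 CPM, Fabp1 at 1597 and 2899 CPM and Reg3b at 3514 and 1116 CPM. In these few cells enteroendocrine markers summed to 349 and 1679 CPM and tuft markers to 374 and 8.44 CPM, and their part in the differences was not tested.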
